A study of Drosophila melanogaster with 2 samples.

Results

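The genes described here are 8 Drosophila melanogaster genes of fibroblast growth factor (FGF) signalling and of tracheal fate, examined for binding of the tagged protein hng2 (hinge2, CG8359), a member of the MADF-BESS protein family. They are bnl, ths and pyr (FGF ligands), btl and htl (FGF receptors), stumps (the adaptor of both receptors), and trh and vvl (tracheal transcription factors). They are 8 of the 13968 protein-coding genes on the main chromosome arms, and all 8 were found in the annotation by symbol. Chromatin immunoprecipitation and sequencing (ChIP-seq) was done on embryos of both sexes aged 0 to 14 h, from the line CG8359-GFP, which carries CG8359 with GFP at its C terminus. The 2 samples, biological replicates 2 and 3, form 1 group, so the design gives no contrast between conditions. The labels name GFP as the antibody target in one field and CG8359 in another, and no control or untagged sample was analysed here. Whole embryos were used, so a peak cannot be assigned to tracheal, mesodermal or other cells.

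A peak is a stretch of DNA with more ChIP reads than its control, and its summit is the highest point. Each gene was examined over its annotated length with 2 kb added to each side, here called its window. On build dm6 there were 4 deposited lists. The optimal list of 3170 peaks had passed the authors' reproducibility step (irreproducible discovery rate, IDR). Relaxed lists of 30000 peaks each covered the pooled reads, replicate 2 and replicate 3. Of the 3170 optimal peaks, 3084 had a summit within 100 bp in the relaxed list of replicate 2. In that of replicate 3 it was 2908, so an optimal peak need not be held by both replicates. The optimal summits of the genes described here had the same ranks and signals in the relaxed pooled list, which is thus not separate evidence for them. A peak's signal is the authors' value against control, and it is not scaled between lists, so ranks (1 is the strongest) are set side by side instead. The genes were chosen for summits and signals in these same lists. Their numbers of summits are therefore a description, with no test. Sequencing depth is unknown, since peak lists carry no counts of reads.

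FGF ligands are secreted and bind receptor tyrosine kinases, which in the fly signal through the adaptor Stumps (also called Dof) to Ras and the MAP kinase cascade. Branchless (bnl), made by cells near the tracheal placodes, draws tracheal cells that carry Breathless (btl) into branches. Pyramus (pyr) and Thisbe (ths) act on Heartless (htl), which the mesoderm needs to spread and to form heart and muscle precursors. Trachealess (trh), a bHLH-PAS factor, and Ventral veins lacking (vvl), a POU factor, set tracheal fate and switch on btl.

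The sequences under 7 of the optimal summits are shown because the results below turn on them. They are the pair in the bnl intron, the bnl promoter, the summits just before internal start sites of stumps, trh and htl, and a summit past the end of stumps with simple repeats. Each is the summit base with 100 bases on either side, from the RefSeq copy of the Release 6 genome (dm6), read 5′ to 3′ on the strand of the named gene, and none overlaps an annotated untranslated exon. Capitals mark matches, on either strand, to any of 10 motifs named below with the motif results.
bnl intron, chr3R:19816858-19817058, minus strand: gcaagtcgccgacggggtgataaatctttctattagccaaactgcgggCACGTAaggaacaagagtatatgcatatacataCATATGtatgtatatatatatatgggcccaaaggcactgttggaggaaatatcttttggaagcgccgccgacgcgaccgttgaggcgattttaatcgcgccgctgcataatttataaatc
bnl intron, chr3R:19817063-19817263, minus strand: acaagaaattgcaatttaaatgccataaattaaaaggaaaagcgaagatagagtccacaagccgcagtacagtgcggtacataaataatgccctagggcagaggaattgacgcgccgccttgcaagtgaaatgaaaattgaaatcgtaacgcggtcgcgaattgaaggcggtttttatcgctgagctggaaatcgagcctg
bnl promoter, chr3R:19836837-19837037, minus strand: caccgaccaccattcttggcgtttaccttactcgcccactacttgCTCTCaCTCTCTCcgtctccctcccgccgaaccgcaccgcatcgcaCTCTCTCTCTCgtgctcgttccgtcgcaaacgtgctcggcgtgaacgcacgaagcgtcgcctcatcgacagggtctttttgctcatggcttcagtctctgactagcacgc
stumps internal start, chr3R:14591172-14591372, plus strand: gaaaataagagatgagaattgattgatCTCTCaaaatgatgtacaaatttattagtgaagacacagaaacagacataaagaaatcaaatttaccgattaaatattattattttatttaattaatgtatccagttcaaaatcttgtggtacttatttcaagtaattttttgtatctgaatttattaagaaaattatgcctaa
stumps past the gene, chr3R:14609030-14609230, plus strand: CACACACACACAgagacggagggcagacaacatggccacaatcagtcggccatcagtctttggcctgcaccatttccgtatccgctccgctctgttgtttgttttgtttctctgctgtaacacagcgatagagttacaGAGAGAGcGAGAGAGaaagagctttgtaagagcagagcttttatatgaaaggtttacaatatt
htl internal start, chr3R:18049705-18049905, minus strand: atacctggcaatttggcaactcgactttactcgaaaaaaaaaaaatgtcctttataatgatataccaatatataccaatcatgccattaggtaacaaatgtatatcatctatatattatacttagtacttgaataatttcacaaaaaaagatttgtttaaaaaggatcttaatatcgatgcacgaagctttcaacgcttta
trh internal start, chr3L:377603-377803, minus strand: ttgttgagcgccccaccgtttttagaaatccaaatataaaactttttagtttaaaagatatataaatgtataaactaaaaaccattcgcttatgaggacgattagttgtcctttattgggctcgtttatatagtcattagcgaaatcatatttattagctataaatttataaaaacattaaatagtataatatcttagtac

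Of the 8 genes, 6 had at least 1 optimal summit in the window, and btl and vvl had none. Over all protein-coding genes the share was 21.5%, and since these counts chose the genes nothing is read from the comparison. The windows held 19 optimal summits in 17 peak intervals, 6 at bnl, 4 at pyr, 3 each at stumps and ths, 2 at trh and 1 at htl. Long genes offer more room, and 7 of the 8 windows belonged to the fifth of genes with the longest windows (10.5 kb or more), where the share with an optimal summit was 41.9%. All 6 genes with a summit were among those 7. With at least 3 optimal summits stood 4 of the 8 genes, against 2.15% of all protein-coding genes. The median was 2.5 optimal summits over the 8 genes and 0 over all protein-coding genes. The 2.15% and the median of 0 cover windows of every length, so the long windows of most of the 8 genes are not allowed for. In the relaxed pooled list the same windows, 223 kb in all, held 136 summits.

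**Figure D1:**
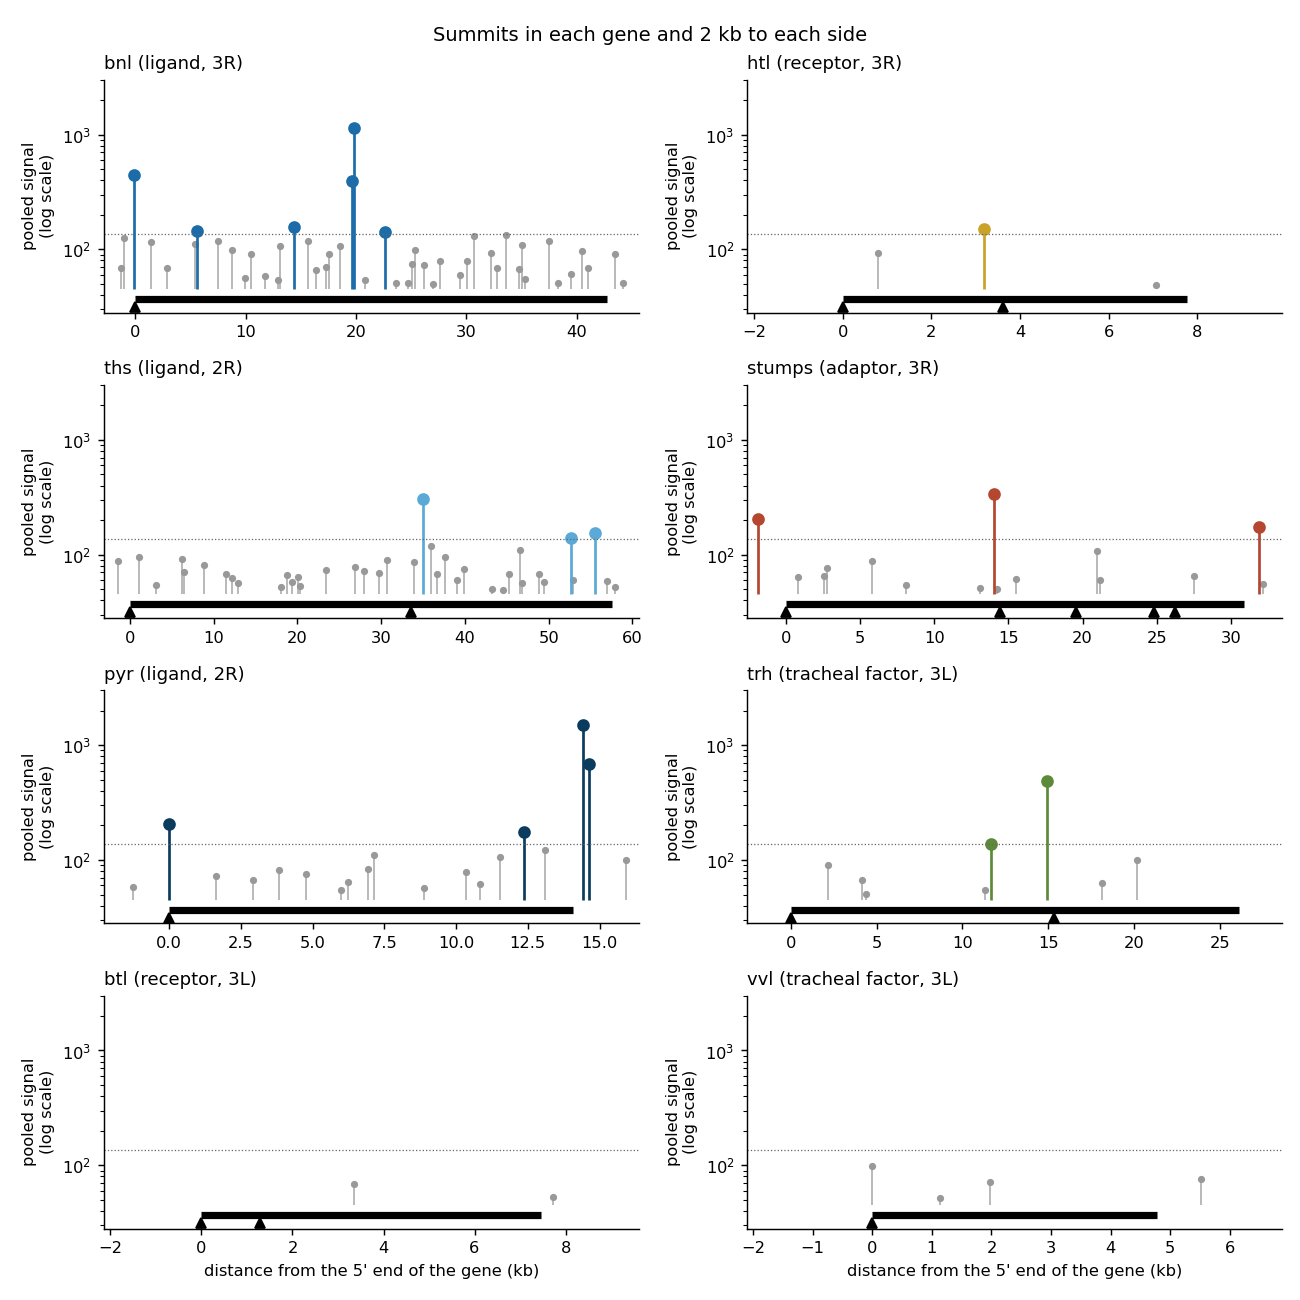
Summits in the window of each gene, drawn in the direction of transcription, with distance from the 5′ end of the gene in kb on the x axis and the pooled signal on a log y axis. Large coloured points are optimal summits, small grey points are further relaxed pooled summits, the black bar is the gene, triangles are its transcription start sites and the dotted line is the lowest optimal signal (137). The ligand genes bnl and pyr hold the highest points and rows of grey ones, while btl and vvl stay under the line.

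The ligand gene bnl (FBgn0014135, chr3R:19794073-19836817, minus strand) carried the most optimal summits of the 8. It has 1 annotated transcription start site (TSS). The strongest summit, at 19816958, lay deep in an intron, 19859 bp downstream of the TSS. Its signal in the pooled reads was 1128 (rank 126), with 657 in replicate 2 (rank 146) and 479.8 in replicate 3 (rank 105). The position was the same base in both replicates. A companion summit in the same 747 bp peak interval, at 19817163, ranked 554 in the optimal list, 891 in replicate 2 and 290 in replicate 3. Both are thus within the 3170 strongest peaks of each replicate, and the pair counts as 1 region of intron rather than as separate sites. The TSS nearest to the pair, 14268 and 14473 bp away, was that of tRNA:Thr-AGT-1-7 and not that of bnl.

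The promoter of bnl was also marked. A summit at 19836937, 120 bp upstream of the TSS, had a pooled signal of 445 and rank 447. In replicate 2 it ranked 1082 with a signal of 191, and in replicate 3 it ranked 186 with a signal of 268. Both replicates placed it within 13 bp of the optimal position, but it stood much higher in replicate 3. The sequence printed above has GC content of 59.2%, the highest of the 19, with CTCTC runs on the gene's strand.

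The remaining 3 bnl summits were intronic and weak. They lay 5636, 14411 and 22656 bp into the gene, the last nearer to the TSS of tRNA:Thr-AGT-1-7 (11471 bp). Their optimal ranks were 2944, 2548 and 3053. In replicate 3 they ranked 2041, 1334 and 2256, and in replicate 2 they ranked 3908, 5125 and 4402. They were thus inside the 3170 strongest of replicate 3 and outside those of replicate 2. Replicate 3's own 3170 strongest peaks put 13 summits in the bnl window and replicate 2's put 3, so the number of summits at bnl rests on the replicate. Of the 13, 7 had no optimal summit within 100 bp.

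A stronger peak stood just outside the bnl window. Its summit at 19839402 was 2585 bp upstream of the gene, with a signal of 2047 and an optimal rank of 69, and it ranked 73 in replicate 2 and 64 in replicate 3. A second summit lay beside it at 19839615, with rank 1061. Both were intergenic, and the nearest TSS, 1443 and 1230 bp away, was that of CG31459. The nearest summit inside the limit was the promoter one at 120 bp. At the other genes the summits nearest the limit on its inner side were those of stumps, 1895 bp upstream and 1051 bp downstream, and no optimal summit lay between 2 and 5 kb from any of the other 7 genes.

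The heartless ligand gene pyr (FBgn0033649, chr2R:11712263-11726345, plus strand) had the strongest summit of all 19, at its 3′ side. The summit at 11726676 was 331 bp past the annotated end of the gene, in intergenic DNA. Its pooled signal was 1509.6 (rank 90), with 900.0 in replicate 2 (rank 99) and 614 in replicate 3 (rank 86). This is the closest match in rank between the replicates among the summits of pyr. A second summit in the same 687 bp interval, at 11726877, had a pooled signal of 689 and rank 232. In replicate 2 its signal was 324 with rank 454, and in replicate 3 its signal was 251 with a higher rank.

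The other pyr summits were weaker. One sat on the promoter, 9 bp upstream of the single TSS at 11712263, with a signal of 204 and rank 1682, and it ranked 2735 in replicate 2 and 846 in replicate 3. Another, at 11724643, lay in a coding exon. It was 1 of 23 such optimal summits in the whole list once those at promoters or in 5′ untranslated regions were set apart. It had a signal of 177 and rank 2122, and it ranked 3837 in replicate 2 and 1098 in replicate 3. All 4 pyr summits stood higher in replicate 3 than in replicate 2.

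The ligand gene ths (FBgn0033652, chr2R:11756817-11814424, plus strand), the neighbour of pyr, had no optimal summit within 500 bp of its TSSs. Its strongest summit, at 11791870, lay in an intron 1504 bp downstream of the internal TSS at 11790366. It had a signal of 307 and rank 867, with 235 in replicate 2 (rank 750) and 84.0 in replicate 3 (rank 1399). The others were near the 3′ end, at 11812384 in the 3′ untranslated region (signal 155, rank 2620) and at 11809499 in an intron (signal 139, rank 3083). In replicate 2 they ranked 2697 and 2935, and in replicate 3 they ranked 5575 and 5724. Every ths summit stood higher in replicate 2, the reverse of the order at bnl and pyr.

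The receptor genes had little. For htl (FBgn0010389, chr3R:18045216-18052984, minus strand), the receptor of the mesoderm, the optimal summit at 18049805 lay 439 bp upstream of the internal TSS at 18049366 and 3179 bp into the gene. Its signal was 151 and its rank 2713. Replicate 2 had it at rank 1919 with a signal of 129. Replicate 3 had no summit within 100 bp even in its relaxed list, where the nearest one was 1306 bp away at rank 16585. The htl summit therefore rests on replicate 2, and htl had 0 summits among the 3170 strongest of replicate 3.

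For btl (FBgn0285896, chr3L:14075772-14083229, plus strand), the receptor of the trachea, the strongest relaxed pooled summit ranked 13490, with a signal of 68.5. It lay at 14079114 in an intron, 2049 bp from a TSS, with rank 13819 in replicate 2 and no summit within 100 bp in replicate 3. The only other relaxed pooled summit of the window, at rank 25071, was 118 bp from the TSS of the neighbour CG8100. The nearest optimal summit to btl on its arm was 70735 bp from the gene. Both relaxed signals were under 137, the lowest of the optimal list, which does not show that the protein was absent there.

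The adaptor gene stumps (FBgn0020299, chr3R:14577217-14608079, plus strand) had 3 optimal summits, of which 1 lay within 500 bp of its own start sites. The summit at 14591272 was 348 bp upstream of the second of 5 TSSs, 14055 bp into the gene. It had a pooled signal of 339 and rank 730, with 265 in replicate 2 (rank 627) and 72.1 in replicate 3 (rank 1944). Both replicates held it, replicate 2 higher. The other summits fell in the flanks, next to other genes.

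The upstream stumps summit, at 14575322, was 1895 bp before the gene, inside an intron of CG7987 and 565 bp from the TSS of that gene. It ranked 1666 in the optimal list, 1415 in replicate 2 and 8055 in replicate 3. The downstream one, at 14609130, was 1051 bp past the gene and 512 bp from the TSS of CG14853. It ranked 2146 in the optimal list, 3068 in replicate 2 and 1078 in replicate 3. Both are nearer to a neighbour's start than to any start of stumps, so the files do not tie them to stumps in particular.

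Of the tracheal factors, trh had a strong summit and vvl had none. In trh (FBgn0262139, chr3L:366524-392633, minus strand) the summit at 377703 was 387 bp upstream of the internal TSS at 377316. Its pooled signal was 484 and its rank 394, and replicate 2 had it at rank 416 with a signal of 342. Replicate 3 split the region into summits on either side, at 377602 (rank 430, signal 146) and 377813 (rank 1179), so the nearest was 101 bp away and missed the limit of 100 bp by a single base. The region was therefore strong in both replicates even though the summits do not count as matched. A second trh summit, at 380994 in an intron, was close to the end of the optimal list, at rank 3164 with a signal of 137, and it was outside the 3170 strongest of both replicates (rank 3230 and rank 4728).

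The vvl gene (FBgn0086680, chr3L:6790158-6794941, plus strand) has a single TSS, and its strongest relaxed pooled summit sat 5 bp from it, at 6790153. The signal was 98.5 and the rank 5992, below the optimal list. It ranked 17213 in replicate 2, with a signal of 39.6, and 7826 in replicate 3, with a signal of 40.2. A further 3 relaxed pooled summits lay in the window, at ranks from 10782 to 26241, of which 2 were in the coding exon.

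In 5 of the 8 genes a start site of the gene itself had an optimal summit at most 500 bp away, against 10.3% of protein-coding genes. With the replicates' own 3170 strongest peaks it was 5 genes in replicate 2 (10.6% of all) and 4 in replicate 3 (10.5% of all), htl being the one missing. In those lists 6 and 5 of the 8 genes had a summit in the window, against 22.2% and 20.7% of all. All 5 promoter summits lay upstream of the start site, and the same share over all optimal promoter summits was not counted. At bnl and pyr they lay 120 and 9 bp upstream of the only TSS. At stumps, trh and htl they lay 348, 387 and 439 bp upstream of an internal TSS, inside the span of the longer transcripts. With a limit of 250 bp the count of genes was thus 2 in place of 5. The share of all protein-coding genes is given for 500 bp only, so the count at 250 bp has none beside it. Of all 19 summits 5 were at promoters (26.3%, and 41.5% of all optimal summits), 9 in introns, 3 intergenic, 1 in a coding exon and 1 in a 3′ untranslated region.

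**Figure D2:**
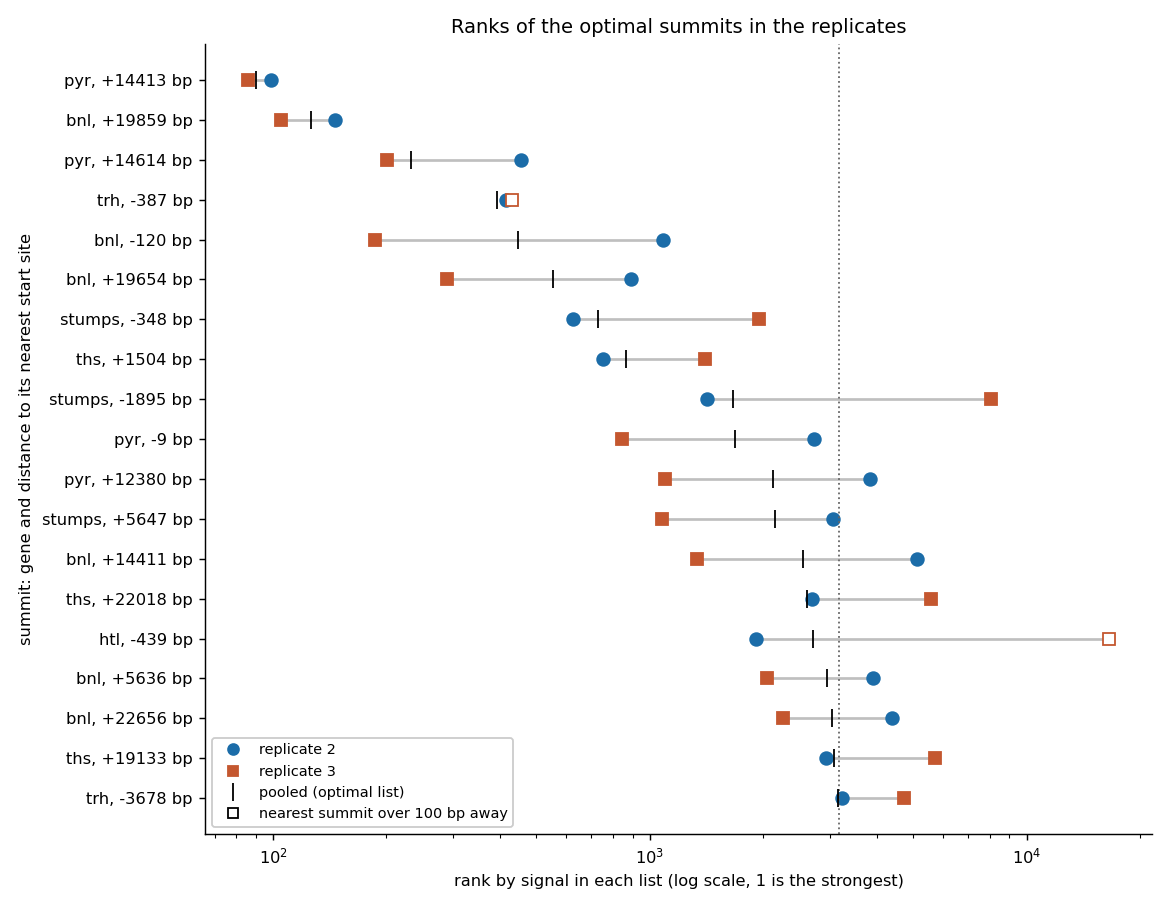
Rank by signal of the 19 optimal summits in replicate 2 (circles), replicate 3 (squares) and the pooled reads (bars), on a log x axis, with the gene and the signed distance to its nearest start site on the y axis and the 3170th rank dotted. Open symbols are nearest summits more than 100 bp away, as at trh (101 bp) and htl (1306 bp). The squares of bnl and pyr lie to the left of the circles, and those of ths to the right.

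In both replicates' 3170 strongest peaks a summit within 100 bp was found for 9 of the 19 (47.4%), against 50.4% of all optimal peaks. Among the rest, 5 were matched in replicate 2 and not in replicate 3, 4 the other way round, and the weak trh summit was matched in neither. In the whole relaxed lists replicate 2 held all 19 and replicate 3 held 17, the others being the summits at htl and the strong one at trh. The replicates differed by gene. Of the 17 held by both relaxed lists, 11 ranked higher in replicate 3, namely all 6 of bnl, all 4 of pyr and 1 of the 3 of stumps. Over the 2828 optimal peaks held by both relaxed lists the share was 36.4%. The other 6 ranked higher in replicate 2, namely all 3 of ths, 2 of stumps and 1 of trh. Some differences were small, as at the strongest pyr summit, with rank 99 in replicate 2 and rank 86 in replicate 3. The paired summits at bnl and at pyr each share 1 peak interval and are not separate sites.

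Base composition moved with this order. The GC content within 100 bp of the summit had a median of 44.3% for the 11 summits that stood higher in replicate 3 and 35.8% for the 6 that stood higher in replicate 2. The summits before internal start sites were among the most AT-rich, with a GC content of 22.9% at stumps, 26.4% at trh and 27.9% at htl. The stumps summit stood higher in replicate 2, and the htl one was found there alone within 100 bp. The trh one was close to a tie, with rank 416 in replicate 2 and rank 430 for the replicate 3 summit 101 bp away. The pattern had exceptions, since the bnl summit at 5636 bp had 28.9% and stood higher in replicate 3, and the ths summit in the 3′ untranslated region had 55.2% and stood higher in replicate 2. Over 2828 optimal peaks found in both relaxed lists, the peaks with the lowest GC (up to 33.3%) ranked higher in replicate 3 in 16.0% of cases and those with the highest (40.8% or more) in 65.1%. Spearman's rho between GC and log2 of the rank ratio (replicate 3 over replicate 2) was -0.46 across these peaks, which share their 2 libraries and are not independent. How far GC content sets the order at these genes was not tested.

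**Figure D3:**
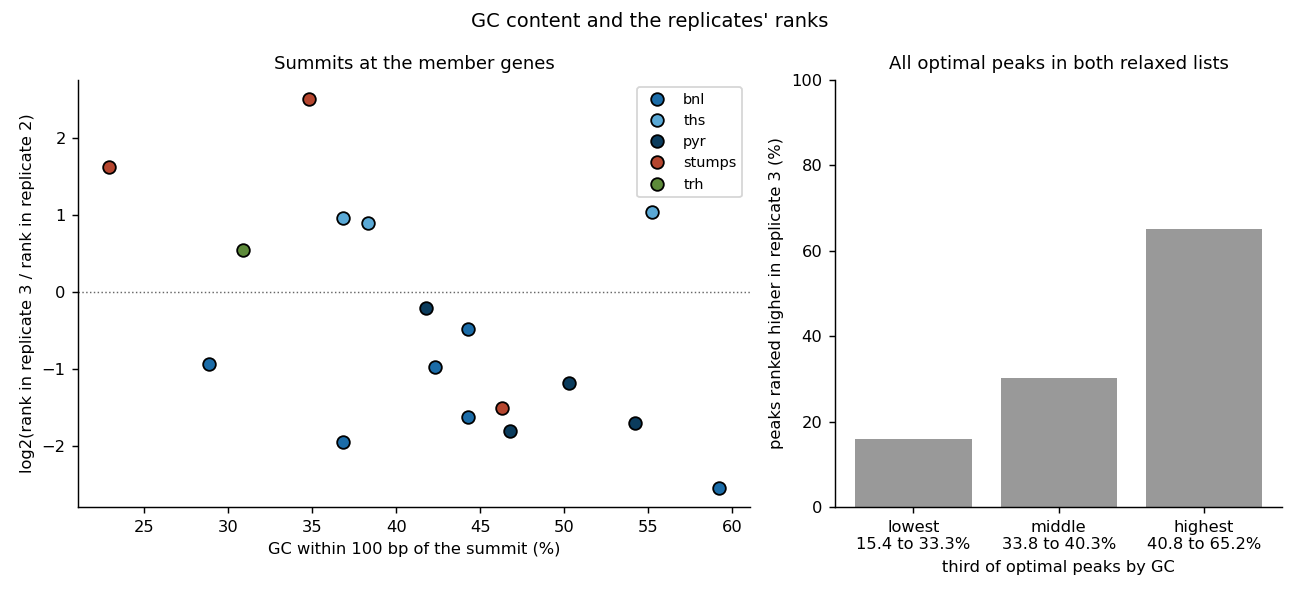
Left, each point is 1 of the 17 summits found in both relaxed lists, with the GC content within 100 bp on the x axis and log2 of the rank in replicate 3 over the rank in replicate 2 on the y axis, where values below 0 stand higher in replicate 3. Right, bars give the percent of optimal peaks ranked higher in replicate 3 in 3 classes of rising GC (16.0%, 30.3% and 65.1%). On the left bnl and pyr lie below 0, and ths lies above.

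The ligand genes also held dense runs of weak summits. In the relaxed pooled list the bnl window held 47 summits, that of ths 38 and that of pyr 19. Per 10 kb of window these are 10.1 at bnl, 6.17 at ths and 10.5 at pyr. In the separate lists the values were 9.63 at bnl, 6.01 at ths and 8.85 at pyr in replicate 2. In replicate 3 they were 10.7, 5.03 and 12.2, higher at bnl and pyr and lower at ths. Of all protein-coding genes, 0.780% were at least as dense as pyr, 1.02% as bnl and 8.70% as ths, while 10.4%, 2.97% and 1.82% had windows at least as long.

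The receptor, adaptor and tracheal factor genes were sparser. Relaxed pooled summits per 10 kb were 4.55 at vvl, 4.30 at stumps, 2.66 at trh, 2.55 at htl and 1.75 at btl. At least as dense as these were 18.8%, 21.4%, 43.1%, 44.2% and 62.0% of genes. The 8 windows together held 60.9 relaxed pooled summits per 100 kb, against 24.1 over the joined windows of all protein-coding genes. The order of the 8 thus ran from the ligands at the dense end to the receptors at the sparse end, as a description of 1 pooled list whose members were chosen on it.

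**Figure D4:**
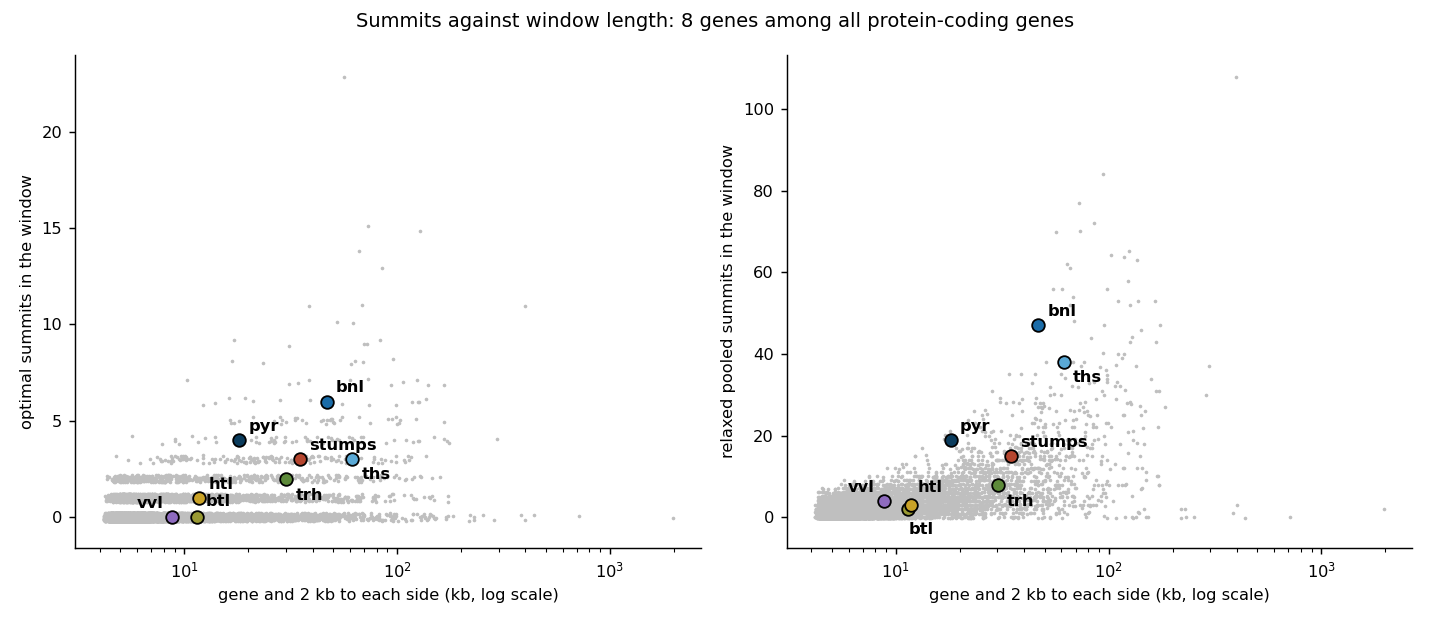
Optimal summits (left) and relaxed pooled summits (right) in the window against window length in kb on a log x axis, for all 13968 protein-coding genes (grey points, jittered on the y axis) and the 8 genes (coloured). Among genes of like length bnl, with 6 and 47 summits, and pyr, with 4 and 19, lie toward the top of the cloud, and btl, with 0 and 2, lies low in the left panel, as most genes do, and inside the cloud in the right one.

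The motifs searched within 100 bp of each summit, on both strands, gave little that these summits shared. GAGAG, part of the site of GAGA factor, was in 4 of the 19 (21.1%), against 24.4% of all optimal summits. The 4 were the bnl promoter, the internal start of stumps, the summit past stumps and the weaker of the pair past pyr. CACACACA was in 2 (4.23% of all), at a weak bnl summit and past stumps, where the printed sequence opens with the repeat. GATAAG, the core of GATA factor sites, was in 2 (10.9% of all).

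The site read by Trachealess with its partner Tango, TACGTG, was in 1 of the 19, the strong bnl intron summit, where it reads CACGTA on the printed strand (4.48% of all). The same summit held CATATG, a Twist E-box and its own reverse complement (8.11% of all). The POU octamer ATGCAAAT (3.06% of all) and the Twist E-box CACATG (7.70% of all) were each in 1, the weaker of the pair past pyr. CAGCTG, an E-box, was in none and in 8.08% of all, TATCGATA, the DRE, in none and in 1.51%, and CAGGTAG, the Zelda site, in none and in 1.04%. With 19 windows each match or miss is a description of letters and not of a factor. The GC content had a median of 41.8% in the 19 windows (22.9% to 59.2%) and 36.3% in all optimal windows.

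Genes that transmit the FGF signal were looked at in the same way. Of 14 genes of the route from receptor tyrosine kinase to MAP kinase, 7 had an optimal summit in the window and 2 within 500 bp of a TSS. Over all protein-coding genes these shares were 21.5% and 10.3%, and in the fifth with the longest windows the first was 41.9%, so the 7 of 14 lie near the share for long genes. The median number of optimal summits was 0.5, and the median window was 15.9 kb, against 6.16 kb for all protein-coding genes. The strongest were at RasGAP1 (rank 163), which turns Ras off, at the kinase gene Raf (rank 189, the strongest of 10 optimal summits in its window), at the scaffold gene cnk (rank 287) and at the adaptor gene Shc (rank 323, 94 bp from a TSS). The cnk summit was nearer to the TSS of l(2)k01209. These 4 were among the 3170 strongest of both replicates, with ranks from 149 to 280 in replicate 2 and from 199 to 1290 in replicate 3.

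Heparan sulfate chains carry FGF ligands to their receptors, and 9 of 10 genes of their synthesis and core proteins had an optimal summit in the window, all but botv. With a summit within 500 bp of a TSS there were 3. The share in the window was 41.9% for the fifth of genes with the longest windows and 21.5% for all, and the share at a TSS was 10.3% for all. The median was 1 optimal summit, and the median window of 26.1 kb is long beside that of all genes. The replicates' own strongest peaks gave 6 genes in replicate 2 and 8 in replicate 3. The strongest were at the glypican genes dlp (rank 666) and dally (rank 1641, 29 bp from a TSS), at sll, a transporter of the sulfate donor (rank 722), and at sgl, an enzyme that makes a sugar precursor (rank 1728). The dlp summit lay 33563 bp from a TSS of dlp and was nearer to that of lncRNA:CR45888. The sgl summit ranked 11919 in replicate 3. At the rest of the 9 genes the strongest summit was weak, with optimal ranks from 1956 to 3025. Some of these were nearer to the TSS of another gene.

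Of 24 further genes of tracheal fate and tube form, 10 had an optimal summit in the window and 5 within 500 bp of a TSS (10.3% of all genes), with a median of 0. The strongest was at the promoter of bs, which encodes serum response factor and acts in terminal tracheal cells. It lay 135 bp from a TSS with a signal of 1669 and rank 80, and it ranked 88 in replicate 2 and 80 in replicate 3. Next came vn, a ligand of the EGF receptor (rank 391), grh, a regulator of tube length (rank 453), and rib, a regulator of branch migration (rank 677), all 3 in introns. They ranked 493, 461 and 619 in replicate 2 and 319, 611 and 1215 in replicate 3. The vn summit lay 21399 bp from a TSS of vn and was nearer to the TSS of mad2.

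Of 11 mesoderm genes that act with heartless, 6 had an optimal summit in the window and 1 within 500 bp of a TSS (10.3% of all genes), with a median of 1. At the muscle factor gene Mef2 the strongest of 4 summits ranked 140, 1059 bp from a TSS of Mef2 and at the promoter of Pal1. The summit at tin, a heart factor, ranked 695 and lay 210 bp from its TSS. Those at zfh1, a factor of mesoderm, and at if, an integrin subunit, ranked 563 and 1668. The if summit lay 29969 bp from a TSS of if and was nearer to that of goe. The shares with a summit in the window were 41.7% for the tracheal and 54.5% for the mesoderm genes, beside 21.5% for all genes and 41.9% for the fifth with the longest windows, and nothing particular to any of the 4 lists is read from such shares. The median windows were 17.0 and 12.6 kb.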

How the data were processed

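ChIP-seq peaks of GFP-tagged hng2 from 2 biological replicates were used as deposited, and fragments were 200 to 800 bp per the labels. The authors deposited 8 lists, of which the 4 on dm6 were used and the others were not used here. In each list the authors give a signal per peak against control, a -log10 q-value and a summit offset from the peak start. Per the files' metadata text, the optimal list was made from both replicates' lists and the pooled list. The caller, aligner and thresholds were not given in the sources used here.

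Summits were placed in the Ensembl release 115 annotation, without transposable elements, and in the RefSeq Release 6 sequence; all 13 start codons of the members read as ATG there. Summits within 100 bp counted as matched. Promoter meant within 500 bp of any TSS. Of 60 listed genes 59 were found by symbol or synonym. The other, hdc of the tracheal list, was left out, though it may stand under another symbol. Counting was tested on simulated data. Python 3.11.15, numpy 2.4.6, pandas 2.3.3 and matplotlib 3.10.9 were used. The members and the lists were chosen with earlier results of these data known. All 8 members and their optimal summits are named, and up to 4 genes of each list. No statistical test was made, and depth is unknown.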

Additional observations from a re-analysis of the deposited data

How the results depend on the processing

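The count of 6 genes with an optimal summit was 6 with flanks of 0, 1000 and 5000 bp and with peak intervals in place of summits, 5 with the 1585 strongest optimal peaks (htl lost), and 5 to 6 with 1 replicate left out. Leaving 1 replicate out meant counting the 3170 strongest peaks of the other replicate's relaxed list. The optimal list was not remade, and these peaks had not passed the IDR step. The 19 optimal summits became 13, 17 and 21 with those flanks, 19 with intervals, 8 with the 1585 strongest peaks, which by construction drops weak summits, and 15 to 25 with 1 replicate left out. The 5 genes with a summit at a TSS became 2 with a limit of 250 bp and 5 with 1000 bp. They became 2 with intervals over a TSS, 3 with the 1585 strongest peaks and 4 to 5 with 1 replicate left out. Apart from those of the single replicates, no shares over all protein-coding genes are given beside the counts in these settings. The 9 summits matched in both replicates became 8 within 50 bp, 10 within 200 bp and 17 when the whole relaxed lists were searched. Counts at btl and vvl were 0 in every one of these settings. At bnl the count was 13 without replicate 2 and 3 without replicate 3. No paired analysis was possible because there is 1 group. With no read counts, a gene under the optimal list cannot be told apart from one too weak to be listed.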

Other observations

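The DNA between pyr and ths held optimal summits outside both windows. The stretch between the genes is 30.5 kb long, and 23 relaxed pooled summits lay in it, 7.55 per 10 kb. Beyond the window of pyr were optimal summits at 11742894 (rank 1053, signal 274) and at 11738699 (rank 2351, signal 166), both intergenic. The first ranked 1190 in replicate 2 and 1069 in replicate 3. The second ranked 1910 in replicate 2 and had no summit within 100 bp in replicate 3. From the window of pyr to that of ths, 106 kb in all, there were 9 optimal and 76 relaxed pooled summits.

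Around vvl, optimal summits appeared at a distance. There was 0 within 20 kb of the gene and 4 within 50 kb, all downstream and intergenic, at 22240, 29110, 39831 and 45119 bp past the end of the gene. The strongest, at 6824051, had a signal of 240.1 and rank 1332, with ranks of 1240 in replicate 2 and 2556 in replicate 3. For btl the same distance of 50 kb held 0 optimal and 32 relaxed pooled summits. Which gene such distant summits belong to cannot be told from peak lists.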
